A study of Mus musculus with 5 samples.

Results

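Resveratrol, a polyphenol made by grapevines and other plants, was compared with vehicle in visceral fat of mice made obese by diet. The comparison took 4 of the 5 libraries of the series, chosen by their treatment label: 2 from the resveratrol group and 2 from the untreated obesity group. All 4 came from male mice of the inbred strain C57BL/6 that, from 8 weeks of age, ate a high-fat diet (60% of energy as fat) for 8 weeks. Treatment began at 16 weeks of age and lasted 28 days, with resveratrol at 2.25 mg/kg through a gastric tube each day in one group and vehicle alone in the other. The labels do not name the vehicle or the visceral depot taken, and do not state what the mice ate during the 28 days. Nor do they say whether both libraries of a group are from different animals. P-values thus reflect only the spread between these libraries, which may be technical. The fifth library, from a lean control on standard chow, was in the fit and the filter on low counts but in no comparison here.

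Visceral fat surrounds the abdominal organs and the gonads. Besides lipid-filled adipocytes it holds progenitor cells, blood and lymphatic vessels, macrophages and other leukocytes, and it is covered by mesothelium, the lining of the body cavity. Obesity enlarges the adipocytes and draws in macrophages, many of which surround dying adipocytes and take up their lipid. Resveratrol is best known for its reported link to the deacetylase SIRT1 and to AMPK, the kinase that senses cellular energy. In bulk tissue, fewer cells of a type and less RNA per cell cannot be told apart.

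The 4 libraries had total counts of 19540961 to 26486024, and 24779 genes passed the filter on low counts. That filter ran on all 5 libraries and let a gene pass on 1 library, which could be the control. On the 4 libraries alone, 18602 genes passed. Levels are given as CPM, a gene's count relative to the TMM-scaled total of its library, in the order obesity library 1, obesity library 2, resveratrol library 1, resveratrol library 2 unless stated otherwise. The obesity libraries lay close together: across 15877 genes with a mean of at least 1 CPM, their median difference was 1.19-fold, and 2.55% of genes differed by over 4-fold. Resveratrol library 2 was as close to obesity library 2, at a median of 1.17-fold with 1.89% of genes over 4-fold apart. It was somewhat farther from obesity library 1, at a median of 1.22-fold with 3.31% of genes over 4-fold apart. The resveratrol libraries lay farther from each other, at a median of 1.56-fold with 19.2% of genes over 4-fold apart.

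Resveratrol library 1 held few adipocyte transcripts and many of smooth muscle. The 20 adipocyte identity genes summed to 41691, 47415, 9282 and 44924 CPM, so that resveratrol library 1 stood at 20.8% of the obesity mean and resveratrol library 2 at 101%. The 16 smooth muscle genes summed to 1953, 1705, 63278 and 1671 CPM. Epididymal genes summed to 18.4, 0.238, 3413 and 0.350 CPM, nearly all of it in resveratrol library 1 from 1 gene, Crisp1, which encodes a sperm-coating protein, while Crisp4 was at a count of 0 in all 4 libraries. Duct and urogenital epithelial genes summed to 837, 13.1, 1291 and 58.4 CPM, so obesity library 1 also stood apart from its partner. Gene lists below are therefore also described for each treated library, and the part of these transcripts in a difference between the groups was not tested. The plot of marker list sums shows these levels.

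**Figure D1:**
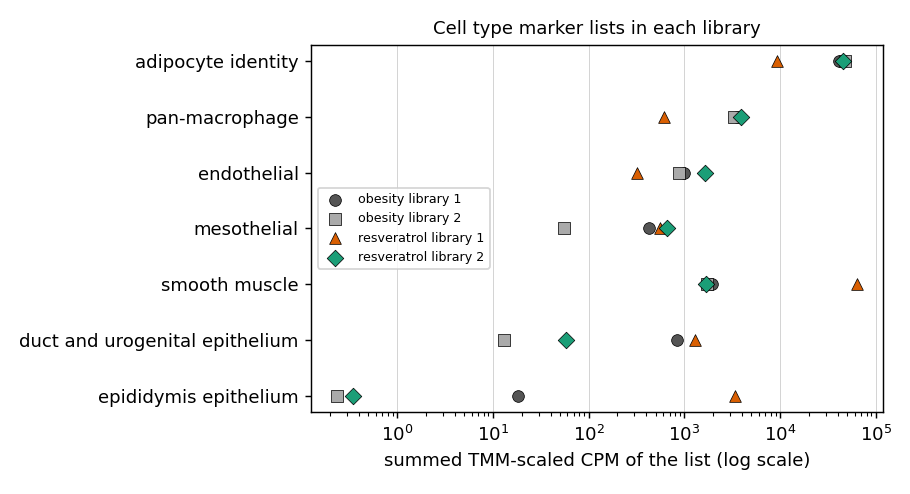
Summed TMM-scaled CPM (log scale) of 7 cell type marker lists in the 4 libraries, 1 point for each library. Resveratrol library 1 lies below the others for adipocyte identity (9282 CPM) and far above them for smooth muscle (63278 CPM). Resveratrol library 2 lies between the obesity libraries for adipocyte identity (44924 CPM) and just below both for smooth muscle (1671 CPM).

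Across the whole comparison nothing passed the test. With edgeR's quasi-likelihood method 0 of 24779 genes (0%) had an adjusted p under 0.05, and the smallest adjusted p was 0.899. An unadjusted p under 0.05 was found for 581 genes (2.34%), with 475 higher with resveratrol (1.92% of tested genes) and 106 lower (0.428%). By the same adjusted threshold DESeq2 called 173 genes (0.698%) and limma-voom 0. Values below are therefore levels and differences, not calls. The resveratrol libraries lay entirely above both obesity libraries for 16.9% of genes and entirely below for 16.7%, and the median log2 difference over all tested genes was 0.05. The log2 difference was positive for 52.8% of genes and negative for 45.1%. Resveratrol library 1 by itself lay above both obesity libraries for 43% of genes and below both for 37.8%. For resveratrol library 2 by itself these shares were 31.9% and 29.9%. Counts for gene lists are to be read against these shares. By size, 221 genes (0.892%) had both treated libraries at least 4-fold above both obesity libraries, and 59 (0.238%) had them at least 4-fold below. These counts and the shares above include genes with few reads here that passed the filter through the control. Atp13a4, for example, had counts of 0, 0, 2 and 3, and was at 48.1 CPM in the control.

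The number of calls depended on the treated libraries. Without resveratrol library 1, edgeR called 33 genes (0.136%), 25 of them higher. Without resveratrol library 2 it called 4758 genes (19.5%), 2416 of them higher. Both fits leave 1 treated library, whose spread is assumed to be that of the obesity group.

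The 12 higher genes with the smallest p included several of the extracellular matrix. Sfrp1 (ENSMUSG00000031548), a secreted inhibitor of Wnt signalling, was at 3.44, 3.43, 51.9 and 47.5 CPM. Fmod (ENSMUSG00000041559), fibromodulin, a proteoglycan that binds collagen, was at 5.22, 4.62, 83.3 and 62.3 CPM. Mfap4 (ENSMUSG00000042436), a microfibril-associated protein of elastic fibres, was at 3.13, 1.28, 41.8 and 60.9 CPM. In all 3 genes both treated libraries lay more than 4-fold above both obesity libraries, and for Mfap4 the log2 difference was 4.54 (SE 0.594, unadjusted p = 0.00137). Aebp1 (ENSMUSG00000020473), a secreted carboxypeptidase-like protein that binds collagen, was at 48.8, 46.6, 237 and 249 CPM. The collagen chain genes Col6a5 and Col8a2 were at 8.50, 4.28, 42.5 and 44.1 CPM and at 0.522, 0.476, 4.09 and 6.73 CPM, with log2 differences of 2.76 (SE 0.442) and 3.43 (SE 0.572). Since the genes were chosen by their p, which favours treated libraries that lie close together, their closeness is a description of the choice.

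The other higher genes of that set have varied roles. Ptgis (ENSMUSG00000017969), prostacyclin synthase, was at 4.75, 6.38, 37.4 and 49.0 CPM. Gpm6a, a membrane glycoprotein gene also known from mesothelium and neurons, was at 0.522, 1.43, 27.9 and 31.6 CPM, a log2 difference of 4.92 (SE 0.655). Il33, an alarm cytokine made by stromal cells of fat, was at 1.20, 1.24, 13.2 and 7.55 CPM. These 3 genes again had both treated libraries above both obesity libraries. Sult1e1, the estrogen sulfotransferase gene, had a single count in each obesity library (0.0522 and 0.0476 CPM) and stood at 19.9 and 5.80 CPM with resveratrol. Folr1, a folate receptor gene, was at 0.104, 0.143, 14.9 and 3.85 CPM, and Tmem151a, a transmembrane protein gene, was at 1.67, 1.43, 21.3 and 15.9 CPM. For Sult1e1 and Folr1 resveratrol library 1 was the higher treated library by a wide margin.

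On the lower side the set held a leukocyte integrin, transcription factors of positional identity and signalling genes. Itgad (ENSMUSG00000070369), the alpha D subunit that pairs with beta-2 integrin on macrophages, was at 251, 157, 2.09 and 3.73 CPM, a log2 difference of -6.12 (SE 0.532, unadjusted p = 0.000265). Gnal (ENSMUSG00000024524), a stimulatory G protein alpha subunit, was at 39.0, 24.6, 2.13 and 1.05 CPM. Pla2g5 (ENSMUSG00000041193), a secreted phospholipase A2, was at 15.8, 11.6, 0.863 and 1.36 CPM. Both treated libraries were far below both obesity libraries in each of these. Cox6a2, the muscle-type isoform of a cytochrome c oxidase subunit, was at 9.44, 7.47, 0.409 and 0.817 CPM. Prss22, a serine protease gene, was at 4.07 and 1.67 CPM in obesity, at 0.0454 CPM in resveratrol library 1 and at 0 counts in its partner, where 3 counts would be 0.117 CPM. Floors and intervals of this kind cover counting error only.

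Smaller separations with higher expression closed the lower set. Serpine2, a serine protease inhibitor gene, was at 126, 129, 36.8 and 53.5 CPM, a log2 difference of -1.50 (SE 0.291). Net1, a guanine nucleotide exchange factor for RhoA, was at 102, 134, 49.1 and 39.4 CPM. Maoa, monoamine oxidase A, was at 82.8, 86.2, 34.8 and 42.6 CPM. The groups did not overlap in these genes, but the gap between them was below 4-fold in each. Bmper, a secreted regulator of bone morphogenetic proteins, was at 35.9, 29.6, 6.59 and 11.3 CPM. The plot of the 24 genes with the smallest p shows the values by library.

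**Figure D2:**
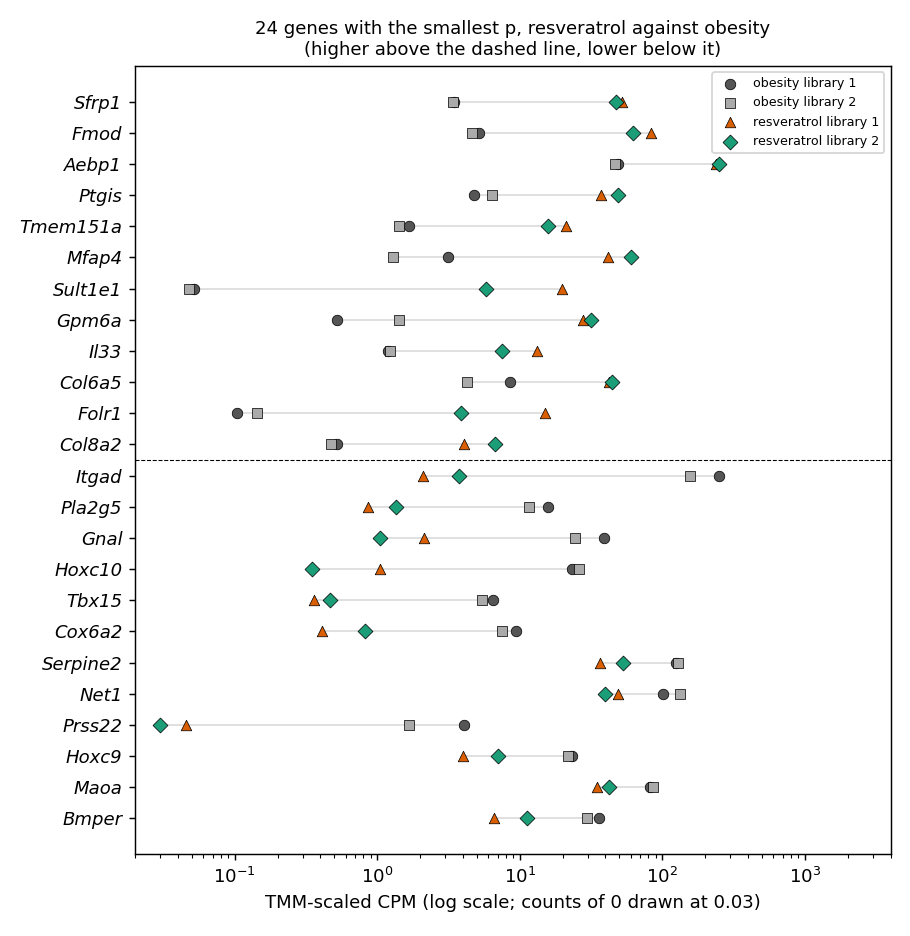
TMM-scaled CPM (log scale) of the 12 higher and 12 lower genes with the smallest unadjusted p, 1 point for each of the 4 libraries, with counts of 0 drawn at 0.03 CPM. For Sfrp1 the treated libraries (51.9 and 47.5 CPM) lie right of the obesity libraries (3.44 and 3.43 CPM), and for Itgad (2.09 and 3.73 CPM) left of them (251 and 157 CPM). The genes were chosen by this comparison, so their separation is a description.

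The other members of these genes' families had varied patterns. Of 12 secreted Wnt inhibitor genes, 7 were higher and 4 lower, and 2 higher members had an unadjusted p under 0.05 (1.92% over all genes). Resveratrol library 1 lay above both obesity libraries for 6 and below both for 1, and its partner above for 4 and below for 2. The 2 higher members were Sfrp1 and Sfrp2, the latter at 12.1, 8.43, 36.8 and 64.6 CPM. Sfrp5, the Wnt inhibitor made by adipocytes, was at 504, 659, 91.7 and 659 CPM, so resveratrol library 2 stood at the level of the higher obesity library. Sost, the sclerostin gene, was at a count of 0 in 3 libraries and at 1051 CPM in resveratrol library 1 alone. Among 11 tested small leucine-rich proteoglycan genes, 7 were higher and 4 lower, and Fmod alone had an unadjusted p under 0.05. In resveratrol library 2, 9 of the 11 lay above both obesity libraries (31.9% over all genes) and 0 below, and in resveratrol library 1 3 lay above and 6 below. The groups did not overlap for 3 higher members (16.9% over all genes), Fmod, Chad and Bgn. Bgn, biglycan, was at 383, 343, 488 and 713 CPM. Their relatives Dcn (decorin) and Lum (lumican) were at 532, 356, 529 and 604 CPM and at 129, 71.7, 27.3 and 108 CPM, with overlapping groups in both. Itgad likewise stood alone among the 5 beta-2 integrin genes. Its partner chain Itgb2 was at 224, 291, 34.7 and 309 CPM, and the related alpha chain Itgax was at 151, 180, 11.8 and 152 CPM. Only for Itgad was resveratrol library 2 among these 5 genes over 4-fold below both obesity libraries.

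Elastic fibre and matrix glycoprotein genes leaned higher. Of 20 members, 15 were higher and 5 lower (52.8% and 45.1% over all genes). The median log2 difference was 0.43 against 0.05 over all tested genes. An unadjusted p under 0.05 was found for 7 higher members (1.92% over all genes) and no lower one (0.428%). Aebp1 and Mfap4, named above for their small p, are among these 7. The groups did not overlap for 7 higher members (16.9% over all genes) and 1 lower member (16.7%). Fn1, fibronectin, was at 197, 286, 605 and 1593 CPM, a log2 difference of 2.19 (SE 0.656). Fbln1, fibulin 1, was at 15.8, 4.76, 102 and 64.1 CPM. Ltbp1, which holds latent TGF-beta in the matrix, was at 25.9, 21.0, 98.9 and 59.4 CPM, and Emilin1, an elastic fibre glycoprotein, at 34.4, 32.9, 123 and 70.8 CPM. All 4 had both treated libraries above both obesity libraries. The treated libraries differed over the rest of the list: resveratrol library 2 was above both obesity libraries for 18 of 20 members (31.9% over all genes) and resveratrol library 1 for 7 (43%), lying below both for 12 (37.8%). Eln, elastin itself, was at 102, 74.2, 64.1 and 293 CPM, and Fbn1, the fibrillin of microfibrils, at 109, 166, 32.4 and 305 CPM.

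Of 21 collagen genes, 6 were higher and 15 lower (52.8% and 45.1% over all genes), with a median log2 difference of -0.31. An unadjusted p under 0.05 was found for 3 higher members (1.92% over all genes) and 0 lower ones (0.428%). Col6a5, named above for its small p, is among these 3. The fibrillar chains Col1a1 and Col3a1 were at 1494, 1187, 493 and 1387 CPM and at 3246, 2523, 442 and 2154 CPM. Resveratrol library 1 was the lowest for both. Over the list resveratrol library 1 lay above both obesity libraries for 4 genes (43% over all genes) and below both for 16 (37.8%). Its partner lay above both for 12 (31.9%) and below both for 5 (29.9%). Against the obesity mean, the list's median was 44.6% for resveratrol library 1 and 125% for its partner. Col14a1, a collagen that sits on the surface of fibrils, was higher in both treated libraries, at 23.5, 19.3, 46.5 and 116 CPM.

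Some progenitor genes were higher, while the median log2 difference of their list was 0.11 against 0.05 over all tested genes. Of 18 adipose stem and progenitor genes, 11 were higher and 7 lower (52.8% and 45.1% over all genes). An unadjusted p under 0.05 was found for 4 higher members (1.92%). Of the 18, resveratrol library 1 lay above both obesity libraries for 8 (43% over all genes) and below both for 9 (37.8%). Its partner lay above both for 13 (31.9%) and below both for 3 (29.9%). Pi16 and Dpp4, which mark the progenitors of the fibrous septa of fat, were at 8.87, 8.28, 28.1 and 45.4 CPM and at 7.04, 10.7, 29.7 and 32.8 CPM. Clec11a, a secreted growth factor gene, was at 2.50, 2.52, 11.4 and 8.75 CPM, and Fmo2, a flavin monooxygenase gene, at 30.7, 31.2, 67.7 and 102 CPM. The groups were apart in all 4. The general progenitor receptor Pdgfra, at 61.8, 63.7, 56.9 and 46.6 CPM, was lower in both treated libraries, with a log2 difference of -0.28 (SE 0.240).

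Genes of positional identity differed between the libraries in several patterns. Hox genes are transcription factors laid out in 4 clusters, and adult fat depots keep different sets of them on. Hoxc10 was at 23.3, 26.2, 1.04 and 0.350 CPM and Hoxc9 at 23.3, 21.9, 4.00 and 7.04 CPM, both treated libraries lying below both obesity libraries. Their neighbour Hoxc8 did not share the separation, at 101, 96.1, 24.9 and 120 CPM. Hoxa9 and Hoxa10 were low in resveratrol library 2 alone, at 28.3, 13.1, 27.8 and 0.428 CPM and at 17.5, 12.0, 93.3 and 0.0389 CPM, the last value being a single count. Hoxd11, Hoxd12 and Hoxd13 were likewise at 0 counts in resveratrol library 2, and stood at 45.6, 8.72 and 43.2 CPM in resveratrol library 1.

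Summed by list, anterior and central Hox genes reached 265.2, 224.2, 542.8 and 350.5 CPM, and posterior ones 111, 80.12, 440.7 and 19.14 CPM. By number of genes, resveratrol library 2 stood higher in the anterior and central list and lower in the posterior one. It lay above both obesity libraries for 18 of 23 anterior and central genes and below both for 0, against 31.9% and 29.9% over all genes, while resveratrol library 1 lay above both for 11 and below both for 9. For the 13 tested posterior genes resveratrol library 2 lay above both for 0 and below both for 6. Resveratrol library 1 lay above both obesity libraries for 10 of those 13 posterior genes and below both for 2, Hoxc9 and Hoxc10. Hoxb4 and Hoxb5 were higher in both treated libraries, at 9.18, 5.14, 26.3 and 17.4 CPM and at 3.34, 1.52, 20.4 and 10.1 CPM. Antisense genes overlap the Hox clusters, and since the strand setting of the counting is not given, their reads cannot be told apart from those of the Hox genes.

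**Figure D3:**
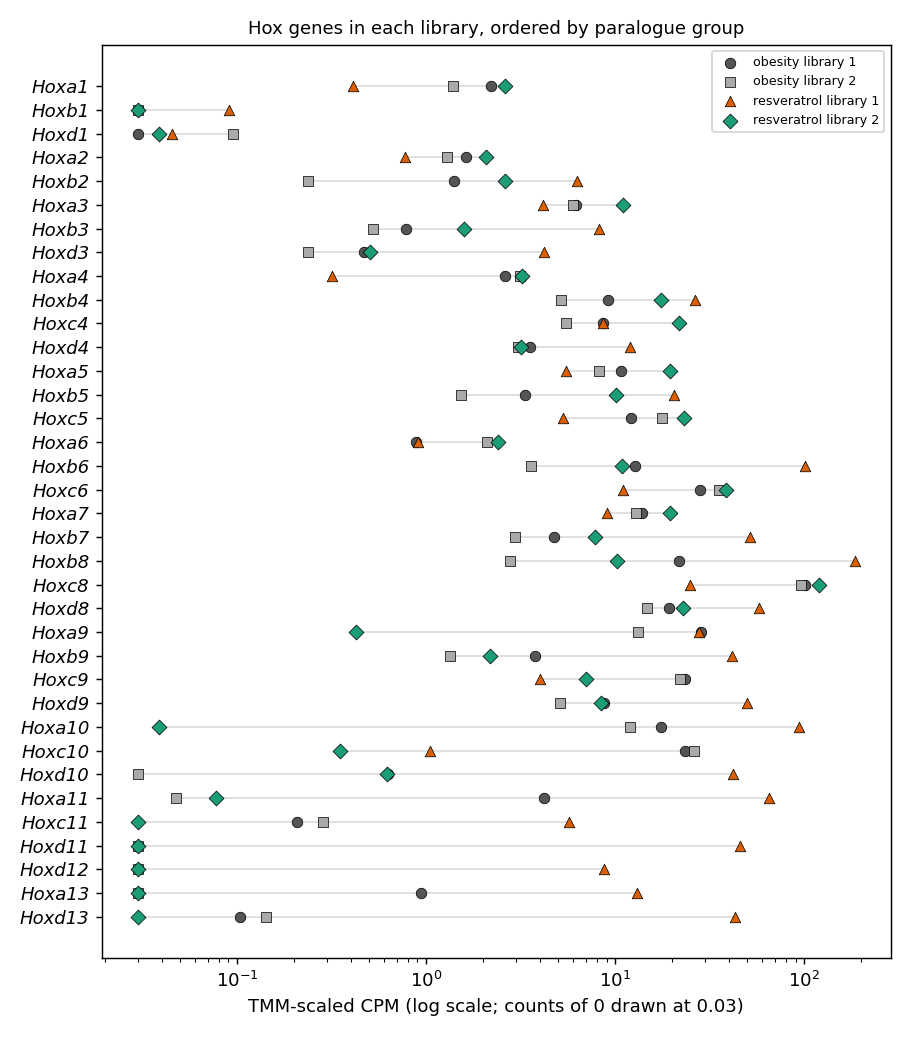
TMM-scaled CPM (log scale) of the 36 tested Hox genes in the 4 libraries, ordered by paralogue group from anterior to posterior, with counts of 0 drawn at 0.03 CPM. In the posterior rows at the bottom, resveratrol library 1 lies at the right (Hoxd13 at 43.2 CPM) and resveratrol library 2 at the left (Hoxa10 at 0.0389 CPM), while for Hoxc9 and Hoxc10 both treated libraries lie left of both obesity libraries.

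Of 19 tested regulators known to differ between fat depots, 10 were higher and 9 lower, with a median log2 difference of 0.28. By library, 6 lay above and 10 below both obesity libraries in resveratrol library 1, and 9 above and 6 below in its partner. Tbx15 (ENSMUSG00000027868), a T-box factor whose level differs strongly between depots, was at 6.47, 5.47, 0.363 and 0.467 CPM. Pitx1, a homeobox factor of the hind part of the body, was at 2.61 and 3.19 CPM in obesity, 0.0909 CPM in resveratrol library 1 and at 0 counts in its partner. En1, a homeobox factor, was at 4.49 and 3.43 CPM in obesity, a count of 0 in resveratrol library 1 and 0.467 CPM in resveratrol library 2. These 3 factors were among 6 regulators that were lower without overlap (16.7% over all genes), and 4 were higher without overlap (16.9%). Wt1, the factor of mesothelium and visceral fat progenitors, was at 1.41, 1.28, 2.32 and 11.8 CPM. Treatment, and which depot or piece of it was dissected, cannot be told apart in these libraries.

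Genes of cell division were lower in both treated libraries. All 18 cell cycle genes had a negative log2 difference, and for 16 of them the groups did not overlap, against 16.7% of all genes. The median log2 difference was -1.06. Cdk1 and Pcna had an unadjusted p under 0.05. Mki67, the proliferation antigen, was at 42.8, 51.0, 8.72 and 32.8 CPM, and Top2a, the topoisomerase that untangles replicated DNA, at 30.7, 44.2, 7.09 and 23.0 CPM. Ccnb2, a mitotic cyclin, was at 12.7, 12.6, 3.23 and 6.92 CPM. Resveratrol library 1 was the lower treated library for these genes, and resveratrol library 2 still lay below both obesity libraries for 17 of the 18 (29.9% over all genes). Its exception was Aurkb, a mitotic kinase, at 7.62, 14.9, 1.91 and 8.87 CPM, and Mcm2, a subunit of the replicative helicase, was the other gene with overlapping groups, at 19.9, 27.3, 20.8 and 14.4 CPM. Relative to the obesity mean, the median member was at 67.3% in resveratrol library 2 and 29.9% in its partner. Macrophages are among the cells known to divide in obese fat. Over their 16 markers the median level against obesity was 20.2% in resveratrol library 1 and 114% in its partner, and their part in the difference was not tested.

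**Figure D4:**
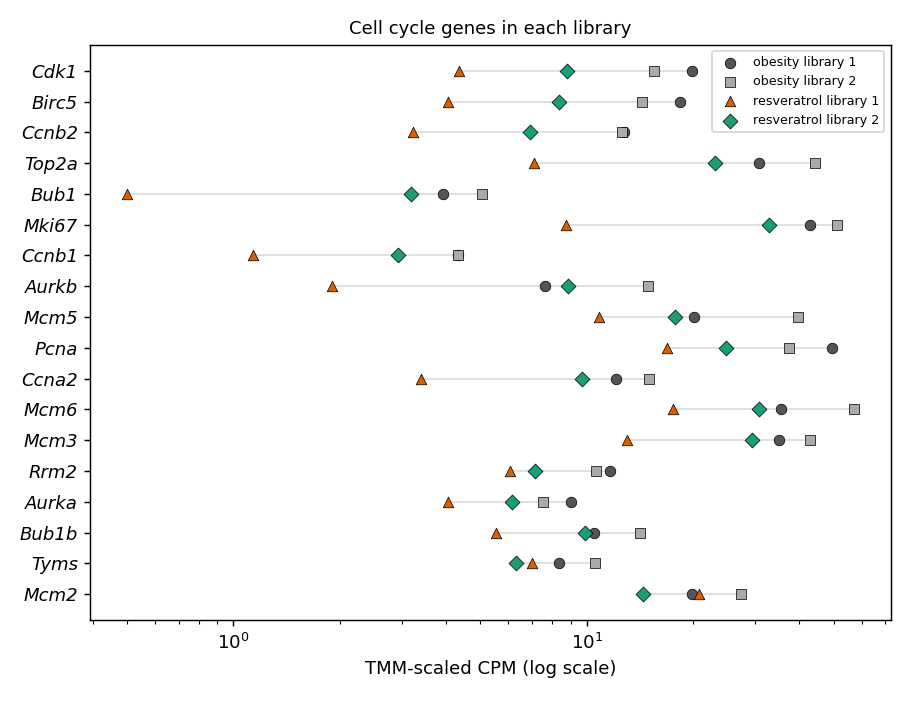
TMM-scaled CPM (log scale) of the 18 cell cycle genes in the 4 libraries, ordered by their log2 difference. Both treated libraries lie to the left of both obesity libraries in 16 genes, and the exceptions are Aurkb (7.62, 14.9, 1.91 and 8.87 CPM) and Mcm2 (19.9, 27.3, 20.8 and 14.4 CPM).

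The promoters of these genes were read for the motifs known from cell cycle promoters. Mitotic genes are known to be switched together through CCAAT boxes, bound by NF-Y, and through the element called CHR, bound by the DREAM and MuvB complexes. The 250 bases before the start of 3 of them are shown, from RefSeq on GRCm38.p6, in the direction of the gene, with CCAAT or its complement ATTGG and TTTGAA or its complement TTCAAA in capitals. These genome coordinates are of another build than the counts. All 3 genes lie on the minus strand: Cdk1 at chr10:69352913-69353162, Ccnb2 at chr9:70421555-70421804 and Top2a at chr11:99024190-99024439.
Cdk1: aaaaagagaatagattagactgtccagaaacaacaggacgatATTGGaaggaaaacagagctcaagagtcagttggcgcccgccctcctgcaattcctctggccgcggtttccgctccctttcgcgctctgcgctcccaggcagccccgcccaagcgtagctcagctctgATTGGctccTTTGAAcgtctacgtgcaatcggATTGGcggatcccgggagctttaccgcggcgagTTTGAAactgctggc
Ccnb2: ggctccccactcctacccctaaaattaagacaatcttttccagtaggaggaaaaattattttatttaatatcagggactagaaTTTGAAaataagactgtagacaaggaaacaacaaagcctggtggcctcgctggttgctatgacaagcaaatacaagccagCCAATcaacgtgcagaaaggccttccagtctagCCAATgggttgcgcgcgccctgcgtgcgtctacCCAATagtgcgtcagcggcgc
Top2a: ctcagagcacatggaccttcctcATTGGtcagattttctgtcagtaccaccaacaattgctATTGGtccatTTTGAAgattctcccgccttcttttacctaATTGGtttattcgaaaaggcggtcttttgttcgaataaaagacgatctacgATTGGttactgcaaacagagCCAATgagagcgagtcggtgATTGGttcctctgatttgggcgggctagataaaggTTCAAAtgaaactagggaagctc
Cdk1 holds 3 CCAAT boxes and 2 matches to TTTGAA in that window, Ccnb2 3 and 1, and Top2a 6 and 2. Of the 18 cell cycle genes 16 had a promoter entry, and CCAAT, read on both strands, was in 14 of them (87.5%) against 33.8% of 32851 promoters of the same length. TTTGAA was in 5 of the 16 (31.2%) against 16% of all. The 3 promoters shown are among those 5. A listed gene counted once if any of its entries matched, while the share over all is per promoter entry. The genes were listed as known cell cycle genes, so these shares describe the list and not these libraries. A match describes the letters only and is no evidence of binding.

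Immune cell genes divided by type. All 10 mast cell genes had a higher level with resveratrol in the fit, 8 of them without overlap (16.9% over all genes). An unadjusted p under 0.05 was found for 4 (1.92% over all genes, higher), and the median log2 difference was 1.96. Each treated library lay above both obesity libraries for 9 of the 10 (43% and 31.9% over all genes for libraries 1 and 2). Kit, the receptor for stem cell factor, was at 6.26, 7.66, 29.4 and 18.2 CPM. The mast cell proteases Cma1 and Tpsb2 were at 4.43, 3.05, 21.9 and 10.3 CPM and at 9.39, 3.90, 33.3 and 16.6 CPM. Both treated libraries were above both obesity libraries in all 3. Hdc, the enzyme that makes histamine, was at 2.50, 2.48, 1.73 and 12.4 CPM, so resveratrol library 1 lay below the obesity libraries there. Several of these genes are at low levels, Tpsab1 for example at 0.417, 0.190, 1.45 and 1.24 CPM, and Kit and Gata2 are also expressed by cells other than mast cells.

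Lymphatic vessel genes were higher too. All 7 had a positive log2 difference, 5 without overlap (16.9% over all genes) and 3 with an unadjusted p under 0.05 (1.92%). The median was 1.82. Each treated library lay above both obesity libraries for 6 of the 7 (43% and 31.9% over all genes for libraries 1 and 2). Lyve1, the hyaluronan receptor of lymphatic endothelium and of some macrophages, was at 4.33, 6.57, 9.86 and 28.7 CPM. Flt4, the receptor for VEGF-C, was at 4.54, 6.38, 9.95 and 19.8 CPM, and Ccl21a, the chemokine that guides dendritic cells into lymph vessels, at 1.83, 3.24, 40.0 and 10.7 CPM. Both treated libraries exceeded both obesity libraries in these 3, whereas the lymphatic master regulator Prox1 overlapped, at 0.469, 0.0952, 1.23 and 0.311 CPM.

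Blood vessel genes went opposite ways in the treated libraries. All 12 endothelial genes were below both obesity libraries in resveratrol library 1 (37.8% over all genes), and all 12 were above both in resveratrol library 2 (31.9%). Cdh5, the cadherin of endothelial junctions, was at 132, 144, 28.8 and 300 CPM, and Pecam1, CD31, at 152, 137, 49.5 and 249 CPM. Over both treated libraries the median log2 difference was 0.06.

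Macrophage genes were far lower in resveratrol library 1 than in its partner. All 16 lipid-associated macrophage genes, the programme of macrophages that take up lipid in obese fat, had a negative log2 difference. For 11 the groups did not overlap (16.7% over all genes), but library medians were 14.3% and 75.2% of the obesity mean. Trem2, the lipid receptor of these cells, was at 317, 228, 34.2 and 164 CPM, Lgals3, galectin 3, at 1783, 1451, 257 and 1023 CPM, and Plin2, the lipid droplet coat protein, at 1731, 1526, 170 and 916 CPM. For these 3 resveratrol library 2 was also below both obesity libraries. Itgax and Mmp12 were not, at 152 and 371 CPM in resveratrol library 2. The lipid-associated list also holds Lpl, which is on the adipocyte identity list too, at 10996, 12193, 1685 and 10574 CPM. In resveratrol library 2 the other macrophage lists lay higher. Of 13 resident macrophage genes 9 were above both obesity libraries there and 2 below, with a median of 155% of obesity. Of 16 pan-macrophage genes 8 were above both and 6 below, against 31.9% and 29.9% over all genes. In resveratrol library 1, 10 of the 13 and all 16 were below both (37.8% over all genes). Mgl2, a lectin of resident macrophages, was at 57.2, 49.8, 12.4 and 83.0 CPM, and Clec10a, its close relative, at 211, 254, 37.9 and 101 CPM, lower in both treated libraries. The complement and MHC class II genes were higher in resveratrol library 2 and lower in resveratrol library 1. In the former, 15 of 17 and 9 of 10 members lay above both obesity libraries (31.9% over all genes). In the latter, 14 and 9 lay below both (37.8%). C7, a terminal complement component, was higher in both treated libraries, at 5.48, 3.29, 70.4 and 27.3 CPM.

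Inflammatory cytokine genes gave no single direction. Of 15 tested, 5 were higher and 10 lower. Among them, resveratrol library 1 lay above both obesity libraries for 4 and below both for 11, and its partner above for 7 and below for 3. The monocyte chemokine Ccl2, from the chemokine list, was at 25.7, 30.7, 5.54 and 31.0 CPM, and Tnf at 0.835, 1.90, 0.545 and 1.24 CPM. Il1b and Il6 were highest in resveratrol library 2, at 3.97 and 2.29 CPM, against at most 0.571 and 0.157 CPM in obesity. Casp1, the protease that activates interleukin 1 beta, was at 31.5, 29.5, 3.18 and 18.4 CPM, and Il10, an anti-inflammatory cytokine, at 1.51, 2.76, 0.318 and 0.739 CPM. These last 2 genes were lower in both treated libraries.

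The prostaglandin pathway differed by enzyme. Besides Ptgis, the cyclooxygenase gene Ptgs2 was higher in both treated libraries, at 0.783, 0.476, 1500 and 7.04 CPM, as was the prostaglandin E synthase gene Ptges at 34.2, 28.3, 914 and 64.9 CPM. Resveratrol library 1 carried most of both. Ptgs1 was at 32.8, 12.5, 221 and 39.2 CPM. The haematopoietic prostaglandin D synthase Hpgds was lower in both, at 56.5, 40.0, 7.81 and 28.0 CPM. Over the 17 eicosanoid and phospholipase genes 9 were higher and 8 lower. By library, resveratrol library 1 lay above both for 7 and below both for 9, and its partner above for 10 and below for 6.

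Nuclear genes of the respiratory chain lay slightly lower in both treated libraries. Of 24 such genes, 21 had a negative log2 difference, 15 of them without overlap (16.7% over all genes), and the median was -0.16. The size was alike in the treated libraries, whose medians were 87.9% and 86.8% of obesity, and resveratrol library 2 lay below both obesity libraries for 22 of 24 genes and above both for 1. Resveratrol library 1 lay below both for 15 and above both for 7. Genes of the mitochondrial genome itself took 4.19%, 2.85%, 5.47% and 3.05% of counts, with overlapping groups. Cycs, cytochrome c, was at 58.9, 41.2, 24.9 and 31.2 CPM, and Sdha, a subunit of succinate dehydrogenase, at 371, 357, 248 and 312 CPM. Ndufs1, a subunit of complex I, was at 91.4, 92.0, 76.8 and 79.6 CPM. The 24 cytosolic ribosomal protein genes had a similar median in resveratrol library 2, at 85.8%, with 19 below both obesity libraries, and a median of 101% in resveratrol library 1.

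Fatty acid oxidation genes had 18 of 20 members lower, 15 without overlap (16.7% over all genes), with a median log2 difference of -0.53. Acadl and Acadm, dehydrogenases of beta-oxidation, were at 337, 296, 91.1 and 228 CPM and at 489, 405, 137 and 342 CPM. Resveratrol library 2 lay below both obesity libraries for 17 of 20 and resveratrol library 1 for 18, and their medians were 81.7% and 50.7% of obesity. Cpt1a, the carnitine transferase that admits fatty acids to mitochondria, was at 148, 178, 103 and 161 CPM, with overlap. Adipocyte transcripts in these libraries stood at 20.8% and 101% of the obesity mean, as given above.

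Adipocyte genes themselves did not separate the groups outside resveratrol library 1. Of 20 identity genes 17 had a negative log2 difference, yet in resveratrol library 2 9 lay above both obesity libraries and 6 below both. Resveratrol library 1 lay above both for 1 and below both for 17. Plin1, the lipid droplet coat protein of adipocytes, was at 1506, 2460, 290 and 2488 CPM. Pparg, the master regulator of adipocytes, was at 129, 168, 20.9 and 144 CPM. Gpd1, which makes glycerol phosphate for triglyceride, was lower in both treated libraries, at 762, 760, 47.8 and 472 CPM. Retn, resistin, was also lower in both, at 947, 972, 337 and 848 CPM. Slc2a4, the insulin-regulated glucose transporter, was at 118, 177, 267 and 178 CPM and so had its highest level in the library with the fewest adipocyte transcripts.

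Of the 19 SIRT1 and AMPK pathway genes, those most often linked to resveratrol, 13 were higher and 6 lower, none with an unadjusted p under 0.05, and the smallest was 0.0821. Resveratrol library 1 lay above both obesity libraries for 12 and below both for 3, and its partner above for 6 and below for 3. Sirt1 was at 23.2, 17.8, 18.3 and 16.1 CPM, a log2 difference of -0.25 (SE 0.293). Sirt3, the mitochondrial deacetylase, was at 8.50, 8.66, 21.2 and 12.0 CPM, and Sirt6 at 11.1, 12.5, 20.9 and 14.9 CPM. Both treated libraries were above both obesity libraries for Sirt3 and Sirt6. The AMPK subunit genes Prkaa2 and Prkag2 stood high in resveratrol library 1, at 37.2 and 213 CPM against 7.35 and 50.9 CPM in resveratrol library 2 and at most 9.38 and 47.8 CPM in obesity. Ppargc1a, the mitochondrial coactivator, was at 3.65, 1.62, 2.13 and 1.79 CPM, with overlap. Circadian clock genes had 14 of 16 members higher, 6 without overlap (16.9% over all genes) and none with an unadjusted p under 0.05. Nr1d1 was at 136, 123, 185 and 229 CPM and Dbp at 74.4, 48.6, 221 and 87.7 CPM. For clock genes resveratrol library 1 lay above both obesity libraries in 11 cases and below both in 2, and its partner in 8 and 3. The hour at which tissue was taken is not in the labels.

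By itself, resveratrol library 1 had 2851 genes at least 4-fold above both obesity libraries (11.5%) and 1641 at least 4-fold below both (6.62%). A single library gives no test. The most abundant of the higher genes were Myh11, the smooth muscle myosin, at 19257 CPM, and Akr1b7, an aldo-keto reductase gene expressed in the vas deferens, at 15288 CPM. Akr1b7 was at 0.313 and 0.0952 CPM in the obesity libraries and was not counted in resveratrol library 2. Next came contractile genes, with the actins Acta2 at 9423 CPM and Actg2 at 4810 CPM, the kinase Mylk at 8010 CPM, and Flna, Cnn1, Tpm2, Csrp1 and Des at 4497 to 9113 CPM. In resveratrol library 2 these 8 genes and Myh11 stood at 0.350 to 949 CPM. Pax8 and Pax2, transcription factors of the urogenital ducts, were at 139 and 118 CPM in resveratrol library 1 and at 0 and 1 count in resveratrol library 2. The most abundant of the lower genes were those of lipid storage and secretion, with Scd1 at 21364, 24828, 2298 and 18989 CPM, Lpl at 10996, 12193, 1685 and 10574 CPM and Cidec at 3745, 4214, 527 and 4368 CPM. For Scd1 and Lpl resveratrol library 2 was just below the obesity libraries, and for Cidec just above.

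By the same rule resveratrol library 2 had 448 genes at least 4-fold above both obesity libraries (1.81%) and 319 at least 4-fold below both (1.29%). Of 14 mesothelial genes, 10 lay above both obesity libraries and 9 at least 4-fold above both, with a median log2 difference of 3.30 from the obesity mean. In resveratrol library 1, 6 lay above both and 4 below both, with a median of 0.13. Msln, mesothelin, was at a count of 0 and at 4.90, 1.82 and 65.4 CPM, Upk3b at 23.6, 6.00, 2.50 and 108 CPM, and Prg4, lubricin, at 8.61, 12.2, 1.36 and 181 CPM. Resveratrol library 2 was the highest of the 4 for each. Summed over the list, however, mesothelial genes reached 430, 55.9, 562 and 658 CPM, since the keratins Krt8, Krt18 and Krt19 were high in obesity library 1 and resveratrol library 1.

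Further genes were high in resveratrol library 2 alone. Alox15, 12/15-lipoxygenase, was at 0.157, 0.857, 0.363 and 148 CPM. Slpi, a leukocyte protease inhibitor, was at 4.59, 3.76, 1.36 and 211 CPM. F5, Serpinb2, Padi4 and Cd5l, chosen after their values were seen, were at 38.1, 16.2, 27.5 and 34.7 CPM in resveratrol library 2 and at no more than 3.19 CPM in any of the other 3 libraries. Gata6, a transcription factor gene of mesothelium and of macrophages of the body cavity, was at 6.52, 4.28, 5.13 and 22.6 CPM. B cell genes were higher there as well, with Cd79a, a chain of the B cell receptor complex, at 0.678, 0.667, 1.36 and 7.35 CPM.

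Immediate-early genes, which respond within minutes to stress or handling, were also highest in resveratrol library 2. Of 15 immediate-early and heat shock genes 11 lay above both obesity libraries there (31.9% over all genes) and 3 did so in resveratrol library 1 (43%). Nr4a1 was at 28.4, 20.0, 28.2 and 209 CPM, Egr1 at 59.4, 45.3, 94.0 and 252 CPM and Fosb at 2.66, 6.05, 3.18 and 31.4 CPM. The heat shock genes Hspa1a and Hspa1b were instead highest in resveratrol library 1, at 5.48, 3.52, 92.5 and 16.4 CPM and at 18.2, 13.8, 375 and 36.1 CPM.

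In the edgeR fit without resveratrol library 1, 10 of the 24 genes with the smallest p in the whole comparison were among the 33 called (0.136% of genes tested). Adjusted p was 0.00987 for Fmod, 0.0101 for Sfrp1, 0.0171 for Hoxc10, 0.0202 for Aebp1, 0.0222 for Ptgis, 0.0285 for Itgad and Sult1e1, 0.0299 for Gnal and Folr1, and 0.0386 for Pla2g5. In the fit without resveratrol library 2 all 24 were called (19.5% of genes tested). Both fits use the same obesity libraries, and the 24 were chosen with all 4 libraries, so neither is independent of that choice. With every library kept, DESeq2 called 22 of the 24 (0.698% of genes tested), edgeR without the filter 15, and limma-voom 0. These fits use the same data that chose the 24. Per library, the log2 difference from obesity was 3.91 and 3.78 for Sfrp1, in resveratrol libraries 1 and 2, and 4.08 and 3.66 for Fmod.

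The plot of gene lists compares the treated libraries with each other. Cell cycle, fatty acid oxidation and respiratory chain medians lay below the obesity mean in both, and lymphatic and mast cell medians above it in both. Adipocyte identity, pan-macrophage, resident macrophage and endothelial medians lay above the obesity mean in resveratrol library 2 and below it in resveratrol library 1, whereas the lipid-associated macrophage median lay below it in both.

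**Figure D5:**
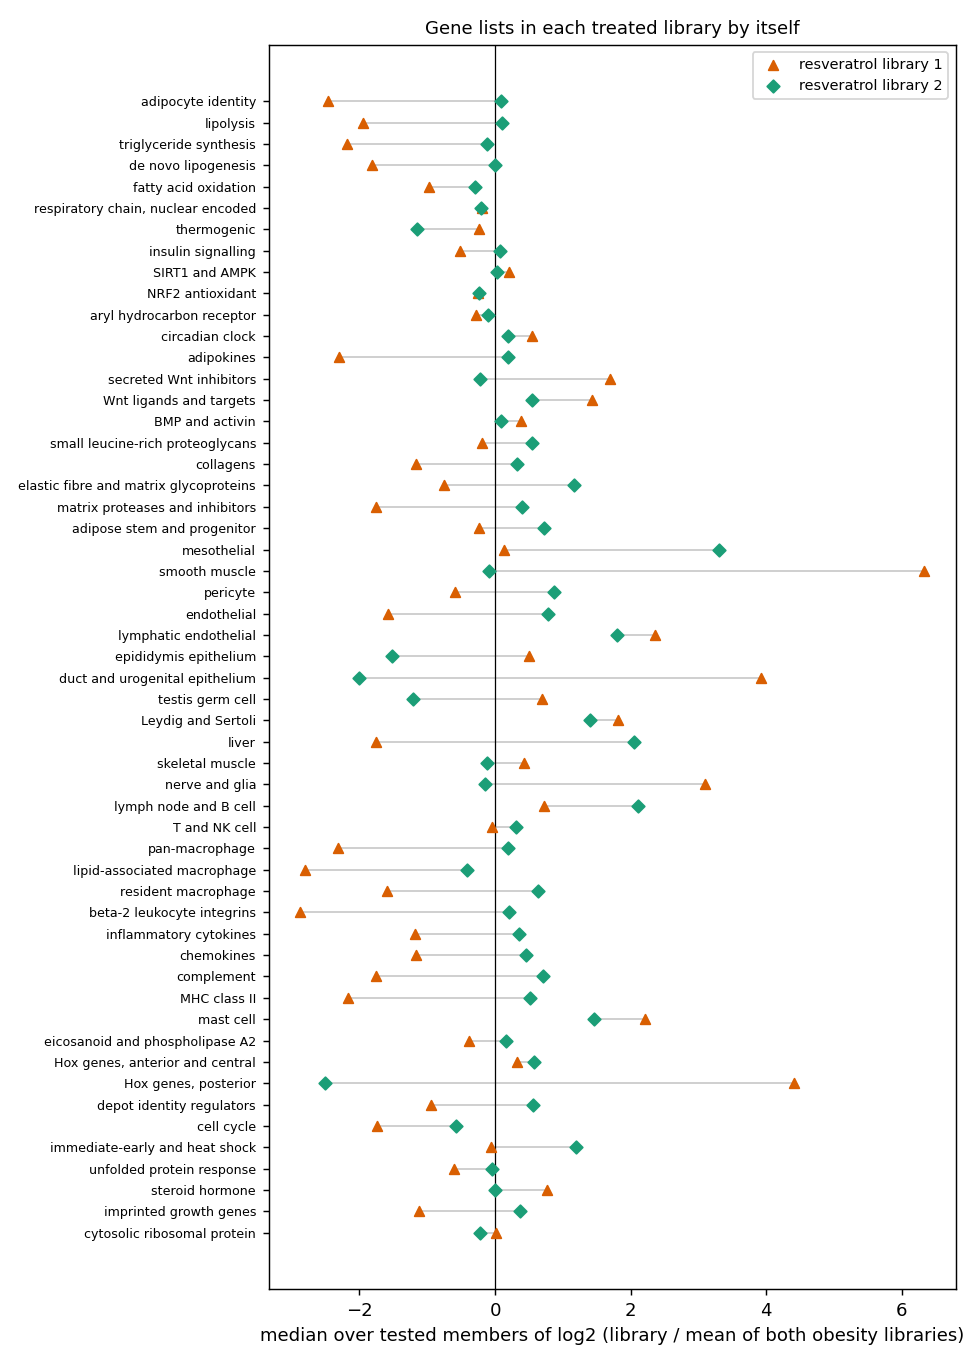
Median over the tested members of each gene list of the log2 ratio of a treated library to the mean of both obesity libraries, with resveratrol library 1 as triangles and resveratrol library 2 as diamonds, and a line at no difference. Cell cycle (-1.74 and -0.57) lies left of the line and lymphatic endothelial (2.36 and 1.79) right of it for both, while smooth muscle (6.33 and -0.09) and posterior Hox genes (4.40 and -2.50) part them. Both ratios share the obesity libraries.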

How the data were processed

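Per the labels, RNA was extracted with a kit for lipid-rich tissue and made into stranded poly-A libraries, read as paired ends. Per the submitters' processing notes, FastQC, featureCounts and genome build GRCm39 were used. Not given in the sources used here: aligner, annotation release, strand setting, tool versions. The authors deposited whole-number counts for 78334 Ensembl genes in 5 libraries, without normalisation, and 65.7% of identifiers were given a symbol.

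Counts were fitted with edgeR 4.0.16 in R 4.3.3 on all 5 libraries. Genes passed filterByExpr (minimum count 10, minimum total 15), TMM scaled the libraries, and a robust quasi-likelihood F test was adjusted by Benjamini-Hochberg at 0.05. The SE is the absolute log2 difference divided by the square root of F. The 4-fold rule was applied to CPM with 0.5 counts added. The fit was run on simulated data, where planted differences had to be found only at a set spread below that of these libraries. What it finds at the spread of these libraries is not given here. Members, the 55 gene lists, rules and tests were chosen with earlier results of these data known, and 834 of 835 list entries matched a gene.

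Genes were named by rule: the 12 per direction with the smallest p and a mean of at least 1 CPM over the 4 libraries, leaving out predicted genes, pseudogenes and antigen receptor segments; for each treated library, the 10 most abundant per direction past the 4-fold rule; the first 3 members of a list with up to 4 of smallest p, of which a selection is given; and 15 fixed genes. Other genes named from the lists were chosen after their values were seen. Alternatives were size factors by median ratio, omitting the filter or raising its minimum count to 50, DESeq2 1.42.0, limma-voom 3.58.1, a non-robust fit, a fit of the 4 libraries alone, a replicate block, a log2 threshold of 1, a 2-fold rule, and leaving out each library. Promoters were RefSeq sequences on GRCm38.p6. Figures were drawn with matplotlib 3.10.9. Some genes are not reported here.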

Additional observations from a re-analysis of the deposited data

How the results depend on the processing

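Depth limits genes near the floor of 3 counts, at 0.117 to 0.157 CPM, and 2 libraries per group limit every test. Genes called numbered 0 with the main settings, with median-ratio size factors, the stricter filter, limma-voom, the fit that is not robust, the 4 libraries alone and the log2 threshold of 1 (305 to 607 genes at an unadjusted p under 0.05), but 25 with no filter and 173 with DESeq2. Leaving out a library gave 0 to 4758 calls. A replicate block called 0 genes too, with a smallest adjusted p of 0.325 and 1184 genes at an unadjusted p under 0.05. The labels do not tie the replicate numbers to shared animals, and deviations of same-numbered libraries correlated at 0.282 across genes. Genes at least 4-fold apart numbered 280, but 586 with no filter, 132 with the stricter filter and 686 to 4405 without a library. For resveratrol library 1 alone the 4492 genes became 7205 with no filter, 2930 with the stricter filter and 8736 by the 2-fold rule, and for resveratrol library 2 alone the 767 became 1791, 306 and 2472. The filters change how many genes are tested; other causes were not tested.

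Some directions turned. Other named genes also had log2 differences from obesity of opposite sign in resveratrol libraries 1 and 2. Examples are Slpi (-1.59 and 5.66), Myh11 (8.43 and -0.68) and Adipoq (-2.39 and 0.29). The genes below are only those that turned sign in a fit that called them, so they are not a full list. Among them, Hoxa10 was lower without resveratrol library 1, and the others were lower without resveratrol library 2. Under both limma-voom and the replicate block the sign also turned to negative for Hoxa10 (-2.84 and -1.55), Fbn1 (-0.44 and -0.43), Pdgfrb (-0.39 in both), Pecam1 (-0.38 in both), Cdh5 (-0.56 in both), Kdr (-0.34 and -0.35), Cd163 (-0.31 and -0.33), Fos (-0.61 in both) and Peg3 (-0.93 in both). It turned without obesity library 1 for Cd163 (-0.22), Fos (-0.04) and Peg3 (-0.32), and without obesity library 2 for Pdgfrb (-0.11) and Pecam1 (-0.03). With each library left out in turn, log2 differences ranged from -2.92 to 4.12 for Prg4, -8.37 to 2.67 for Hoxa10, -2.08 to 1.16 for Fbn1, -1.60 to 0.80 for Pdgfrb, -1.54 to 0.80 for Pecam1, -2.25 to 1.14 for Cdh5, -1.51 to 0.82 for Kdr, -1.82 to 1.89 for Alb, -1.61 to 0.86 for Cd163, -2.28 to 1.03 for Fos and -2.86 to 0.91 for Peg3. Of the 55 list medians, 34 had the same sign without resveratrol library 1 and 40 without resveratrol library 2, and 47 to 55 under the other alternatives.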

Other observations

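Obesity library 1 held transcripts that its partner lacked. Ucp1, the uncoupling protein of brown fat, was at 88.6 CPM there, against 0.381 CPM in obesity library 2, a count of 0 in resveratrol library 1 and 0.194 CPM in resveratrol library 2. Cidea and Cox8b, also genes of thermogenic fat, followed, at 45.3, 2.90, 10.1 and 1.67 CPM and at 52.6, 5.43, 0.863 and 7.12 CPM. Epithelial genes were also high in it: the keratin Krt5 was at 132 CPM, a count of 0, 42.9 CPM and a count of 0, the cornified envelope gene Sprr1a at 227, 1.14 and 0.318 CPM and a count of 0, and the urothelial gene Upk1a at 70.0, 0.143, 3.77 and 0.661 CPM. For Ucp1 and Sprr1a the group difference therefore rested on 1 obesity library.

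Several secreted signals were at least 4-fold higher in both treated libraries, chosen here after their values were seen. Penk, the enkephalin precursor gene, was at 7.72, 3.57, 199 and 39.6 CPM, and Spock2, a proteoglycan gene, at 9.86, 4.52, 269 and 86.8 CPM. Ccbe1, which helps activate VEGF-C, was at 1.67, 1.81, 9.63 and 10.3 CPM. By edgeR's quasi-likelihood test none passed, the smallest adjusted p of any gene being 0.899.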
